A study of Mus musculus with 6 samples.

Results

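Voltage-gated sodium and calcium channel genes were followed in the organ of Corti, the hearing epithelium of the cochlea, in mice at postnatal day 15. Homozygous Pjvk-/- animals (called knockout) were compared with Pjvk+/+ animals (wild-type), both of strain background C57BL/6J-129/Sv. Pjvk encodes pejvakin, whose loss causes deafness, and the comparison asks how the transcripts of the hearing organ differ without it. Total RNA of 3 samples of each genotype was hybridised to 6 arrays. The labels do not say whether a sample came from 1 animal or a pool, so p-values here reflect the variation among samples, part of which may be technical.

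The members were all probe sets whose single gene symbol in the platform annotation begins with Cacna, Cacnb or Cacng, or reads Scn followed by a number and a or b. Cacna1d and Cacnb2 were left out by this rule. It found 49 of the 35557 probe sets in the table, which stand for 33 of the 19938 genes tested. Of these, 29 genes had a single probe set, Scn2a had 14, and Scn9a, Cacna2d1 and Cacng2 had 2 each. For these 4 genes the brightest probe set, by its mean of 6 arrays, stood for the gene, and the other 16 probe sets are given beside it. Another 3 probe sets carried several gene symbols, a channel among them, and were not used. Channel genes without a probe set of a single symbol, such as Scn4a, Cacnb3 and Cacng6, were not analysed here.

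A voltage-gated sodium channel is a large pore-forming alpha subunit (Scn1a to Scn11a) with small single-pass beta subunits (such as Scn2b), and it carries the upstroke of the action potential in neurons and muscle. A high-voltage-activated calcium channel joins a pore-forming alpha1 subunit to a cytoplasmic beta subunit and an extracellular alpha2delta subunit, whereas the low-voltage-activated T-type pores Cacna1g, Cacna1h and Cacna1i can work alone. The gamma genes encode membrane proteins, of which Cacng1 belongs to the calcium channel of skeletal muscle and Cacng2, Cacng3, Cacng4 and Cacng8 to AMPA-type glutamate receptors. In the cochlea, sodium channels carry the spikes of the spiral ganglion neurons, the afferent neurons of the hair cells. Glutamate release by the inner hair cell depends on an L-type channel with the pore Cacna1d and the beta subunit Cacnb2, the pair that the rule leaves out.

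Values below are log2 signals of a probe set as deposited, or differences between them with the wild-type subtracted from the knockout. Signals of different probe sets are not compared as levels. The arrays had medians from 6.66 to 6.69. The Pjvk probe set was lower in all 3 knockout arrays than in all 3 wild-type arrays (4.33 ± 0.11 against 4.92 ± 0.16, SD, n = 3 each; adjusted p = 0.105 in limma), though it was dim in both. Of the cell type markers, all 11 for hair cells, 11 for spiral ganglion neurons, 9 for supporting cells and the 4 measured for Schwann cells lay above a background taken from the receptors of the nose. That background was 5.87, the 95th percentile of 1210 olfactory and vomeronasal receptor probe sets. The skeletal muscle and the smooth muscle markers were above it in 9 of 15 and 4 of 6. Both Pjvk means lay below this background, so little can be read from their difference. Whether fewer cells of a type or less RNA per cell lies behind a difference in such bulk tissue cannot be told apart.

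None of the 33 channel genes passed the test. Their log2 fold changes lay between -0.18 for Cacng2 and 0.19 for Scn9a, with 13 genes lower, 18 higher and 2 at 0, and a median of 0.02 beside -0.01 over all genes tested. The smallest adjusted p among them was 0.317 (limma, Benjamini-Hochberg over all genes), and 0.0351% of all genes tested were called at an adjusted p under 0.05. At an unadjusted p under 0.05 stood 4 of 33 channel genes, 12.1%, beside 12.4% of all genes. With an intensity trend and robust priors, which called 0.562% of all genes, again no channel gene was called, the smallest adjusted p being 0.123 for Scn8a. No channel gene was called under any of the 15 alternative settings.

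The 95% intervals of the 33 genes, not adjusted for their number, reached from -0.38 (Scn2b) to 0.45 (Scn3b). They thus lay within a 1.3-fold lower and a 1.36-fold higher signal, and all 33 lay inside 1.5-fold in either direction, as did those of 98.9% of all genes. When the mean level of 3 Y-linked genes was added to the fit as a covariate, 26 of the 33 intervals lay inside 1.5-fold, beside 88.9% of all genes, and they reached from -0.60 (Scn11a) to 0.84 (Scn9a). These bounds are on the signal, which understates differences in transcript near the background. Of the 33 genes, 28 were above the receptor background. Scn3a, Scn10a, Scn11a, Cacna1f and Cacng3 were not, and little can be read from their values.

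**Figure D1:**
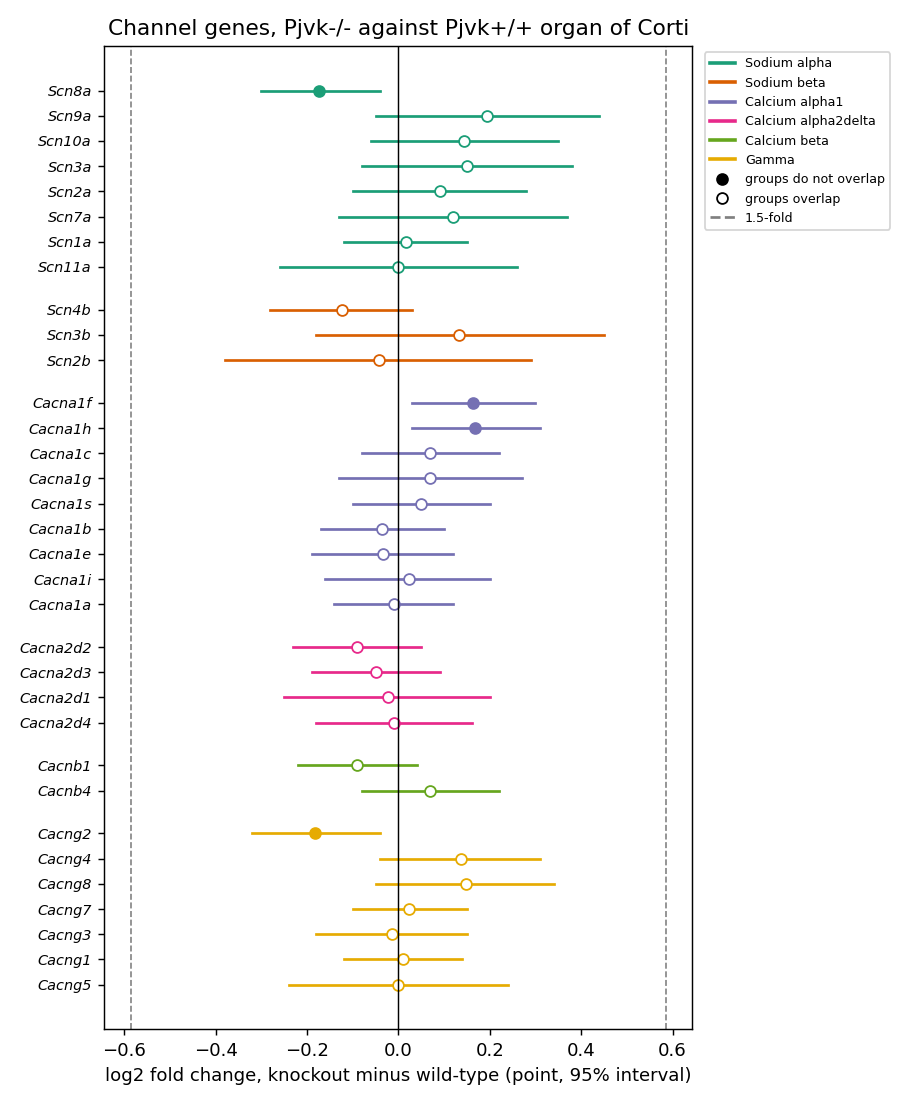
Log2 fold change (horizontal axis, knockout minus wild-type) of the 33 channel genes, grouped by the role of the subunit, with the point estimate and its 95% interval from limma, n = 3 per genotype. All intervals lie between the dashed lines at 1.5-fold, and the filled points, Scn8a, Cacng2, Cacna1f and Cacna1h, are the genes whose genotypes do not overlap.

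In 4 of the 33 genes, 12.1%, the knockout and wild-type arrays did not overlap, beside 17.8% of all genes. Scn8a and Cacng2 were lower in each knockout array than in each wild-type array (11.3% of all genes behaved so), and Cacna1f and Cacna1h were higher (6.59% of all genes). The share among the channels was no larger than in the rest of the table. Direction went with signal over the whole table: 72.1% of genes at or above the median signal were lower in the knockout, against 35.5% of those below it. Of the channel genes, 17 lay at or above the median signal, with 9 lower and 7 higher, and 16 below it, with 4 lower and 11 higher. The 2 lower genes of the 4 were in the brighter set and the 2 higher genes in the dimmer set, and the part of this trend in their differences was not tested.

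The stretches upstream of the start site are shown for 3 of these 4 genes, since they are the channels that separated the genotypes. They are the 250 bases before an annotated start, 5′ to 3′ on the strand of the gene, from RefSeq on GRCm38.p6, where 25 of the 33 genes had an entry and Cacna1h did not. Capitals mark promoter motifs found on either strand without mismatch. The GC box was searched as GGGCGG. The motif of the factor NF-Y was searched with the letters CCAAT. The box of the TATA-binding protein was searched with the letters TATAAA. Scn8a lies at chr15:100870395-100870644 (plus strand, the upstream of its 2 entries), Cacng2 at chr15:78119281-78119530 (minus strand) and Cacna1f at chrX:7606853-7607102 (plus strand).
Scn8a: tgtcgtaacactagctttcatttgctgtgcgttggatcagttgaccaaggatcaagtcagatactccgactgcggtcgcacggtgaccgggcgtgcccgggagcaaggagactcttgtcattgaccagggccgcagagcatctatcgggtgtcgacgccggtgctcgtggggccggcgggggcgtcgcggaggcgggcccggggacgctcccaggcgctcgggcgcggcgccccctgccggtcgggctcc
Cacng2: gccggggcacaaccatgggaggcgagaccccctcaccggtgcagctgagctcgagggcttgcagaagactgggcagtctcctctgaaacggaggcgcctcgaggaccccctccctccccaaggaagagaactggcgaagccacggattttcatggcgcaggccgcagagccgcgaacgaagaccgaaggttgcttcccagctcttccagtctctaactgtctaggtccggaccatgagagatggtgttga
Cacna1f: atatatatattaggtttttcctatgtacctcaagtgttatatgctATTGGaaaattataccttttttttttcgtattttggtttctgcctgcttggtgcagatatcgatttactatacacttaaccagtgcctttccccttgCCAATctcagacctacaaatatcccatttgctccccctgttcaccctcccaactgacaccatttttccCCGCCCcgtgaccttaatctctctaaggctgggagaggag
The Scn8a and Cacng2 windows shown are rich in CpG, with 30 and 16 CpG dinucleotides and 68.0% and 62.0% G or C. They hold none of the 3 motifs. The window of the other Scn8a entry has 9 CpG and 53.2% G or C. The Cacna1f window has 4 CpG and 41.6% G or C, with 1 GC box and 2 NF-Y motifs. Over all 32851 windows of this length the median was 6 CpG and 52.4% G or C, 32.7% held a GC box, 33.8% an NF-Y motif and 12.4% a TATA box. Of the 33 windows of channel genes, 12 held a GC box, 8 an NF-Y motif and 1, of Scn2a, a TATA box. These matches describe the letters only, and nothing in the arrays measures binding there.

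Among the pore-forming sodium channel genes, Scn8a stood lower and 6 of the other 7 were slightly higher. Scn8a encodes the sodium channel of nodes of Ranvier and axon initial segments. It read 9.43, 9.49 and 9.46 in knockout arrays and 9.58, 9.70 and 9.62 in wild-type arrays. The genotypes did not overlap, and their closest values were 0.09 apart. The difference was -0.17 (SE 0.06, 1.13-fold, adjusted p = 0.317, exact two-sided permutation p = 0.1, the smallest that 3 against 3 arrays allow). It ran from -0.20 to -0.14 with 1 array left out.

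Scn9a, the channel of nociceptors and sympathetic neurons, read 6.30, 6.12 and 6.20 in knockout and 6.13, 6.16 and 5.75 in wild-type arrays. The groups overlapped. The shift of 0.19 (SE 0.11, adjusted p = 0.486, exact permutation p = 0.3) was 0.06 without wild-type replicate 3, 0.27 without wild-type replicate 2 and 0.502 with the Y-linked covariate. Its other probe set, dimmer, differed by 0.04. Scn10a, a channel of sensory neurons of the dorsal root ganglia, read 5.07, 4.87 and 5.06 against 4.87, 5.0 and 4.70, all within the receptor background. It differed by 0.14 (SE 0.09, adjusted p = 0.524, exact permutation p = 0.3), or 0.06 without wild-type replicate 3. Scn11a, another sensory neuron channel, also lay within that background and had the same mean in both genotypes.

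Scn1a, Scn2a, Scn3a, Scn7a and Scn9a form a cluster on the chromosome of Pjvk, between 79 and 86 protein-coding genes away from it. No member of the cluster passed the test or separated the genotypes. Scn1a, a channel of fast-spiking neurons, read 9.42, 9.27 and 9.37 against 9.35, 9.36 and 9.30. The genotypes were interleaved, with a difference of 0.02 and an interval from -0.12 to 0.15. Scn3a, which is prominent in embryonic neurons, read 5.66, 5.78 and 5.91 against 5.43, 5.72 and 5.75. Scn7a, which encodes a sodium-gated relative expressed in glia and other non-excitable cells, read 7.49, 7.64 and 7.80 against 7.50, 7.34 and 7.73. In both genes the genotypes overlapped, with differences of 0.15 (SE 0.10) and 0.12 (SE 0.11) and adjusted p of 0.544 and 0.664. All 5 genes were on the higher side, as they were with quantile normalization and with centring on the array medians. Scn2a was lower with the mean of its probe sets, and Scn3a and Scn7a were lower with the Y-linked covariate. Scn1a was at -0.017 without knockout replicate 1 and at -0.002 without wild-type replicate 3. The 3 genes that lie between them in gene order, Csrnp3, Galnt3 and Ttc21b, differed by -0.12, -0.01 and -0.02. Strain variants under the probes were not analysed here.

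Scn2a, the channel of unmyelinated axons and young initial segments, offered a measure of how far probe sets of a gene differ. The probe set that stood for it read 8.43, 8.14 and 8.40 against 8.27, 8.24 and 8.19, a difference of 0.09 (SE 0.08, adjusted p = 0.66). Of its 14 probe sets, 9 were lower and 5 higher, between -0.11 and 0.09, and in none did the genotypes separate. The smallest adjusted p among them was 0.539 when all probe sets were entered singly. The differences thus spread over 0.20 on the log2 scale among probe sets of a single gene, beside a range from -0.18 to 0.19 over the 33 genes. These probe sets share their RNA and are not replicates of a genotype. Close sodium channel genes may also share hybridisation, which was not assessed.

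**Figure D2:**
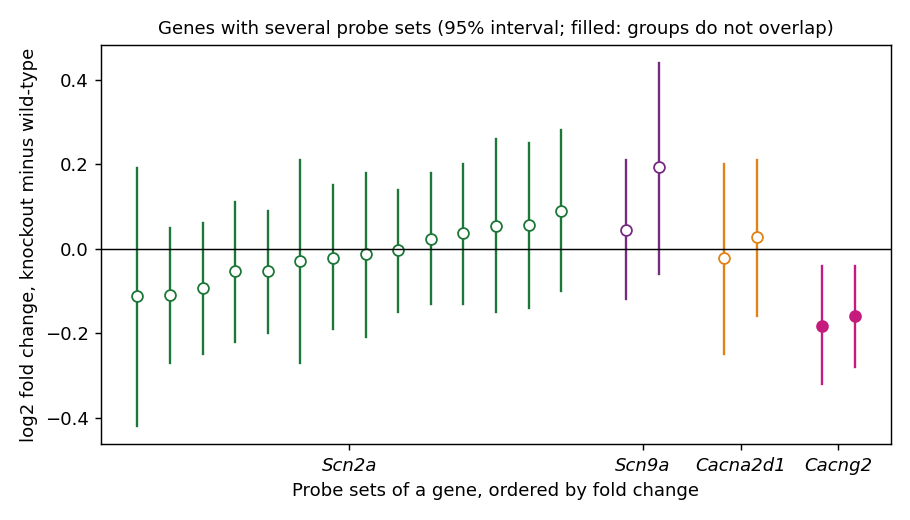
Log2 fold change (vertical axis, knockout minus wild-type) with its 95% interval for each probe set of the 4 channel genes that have several, ordered within a gene. The 14 probe sets of Scn2a lie on both sides of 0, between -0.11 and 0.09, whereas both probe sets of Cacng2 lie below it and are filled because their genotypes do not overlap.

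The sodium channel beta subunits, which anchor and modulate the pore, included the widest intervals, those of Scn2b and Scn3b. Scn4b, the subunit behind resurgent current, read 9.40, 9.54 and 9.60 in knockout and 9.68, 9.59 and 9.64 in wild-type arrays. It differed by -0.12 (SE 0.07, adjusted p = 0.469, exact permutation p = 0.2), and the highest knockout value lay just above the lowest wild-type value. Without knockout replicate 1 it was -0.07. Scn2b, which links covalently to the pore, read 7.67, 7.05 and 7.08 against 7.30, 7.29 and 7.34. Knockout replicate 1 lay above every wild-type array and both other knockout arrays below every one. The shift of -0.04 (SE 0.15, adjusted p = 0.921, exact permutation p = 1) became -0.24 without that array (adjusted p = 0.322). Scn3b read 6.55, 6.13 and 6.05 against 6.08, 5.94 and 6.31, again with knockout replicate 1 as the highest array. Its shift of 0.13 (SE 0.14, adjusted p = 0.701, exact permutation p = 0.6) was -0.02 without that array.

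That array was compared over all channel genes, after the values were seen. Knockout replicate 1 was the highest of the 6 arrays for 14 of 33 channel genes, 42.4%, whereas it was the highest for 14.9% of all genes. The other arrays were each the highest for 3 to 5 channel genes. Its signal lay above the mean of the other knockout arrays in 19 of 33 channel genes, 57.6%, beside 51.2% of all genes, and by over 0.2 in 4, 12.1%, beside 5.93%. These 4 were Scn2b by 0.61, Scn3b by 0.46, Cacng5 by 0.37 and Cacna2d1 by 0.32. Scn7a, at -0.23, and Scn3a, at -0.19, went the other way. Over the 11 spiral ganglion neuron markers this array had a mean signal of 10.27, beside 10.27 and 10.25 in the other knockout arrays and 10.27 to 10.29 in the wild-type. Over 21 partners of sodium channels at nodes and initial segments it had 8.60, beside 8.49 and 8.53 in the knockout and 8.55 to 8.57 in the wild-type. The part of neuronal material in the high signals of this array was not tested.

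**Figure D3:**
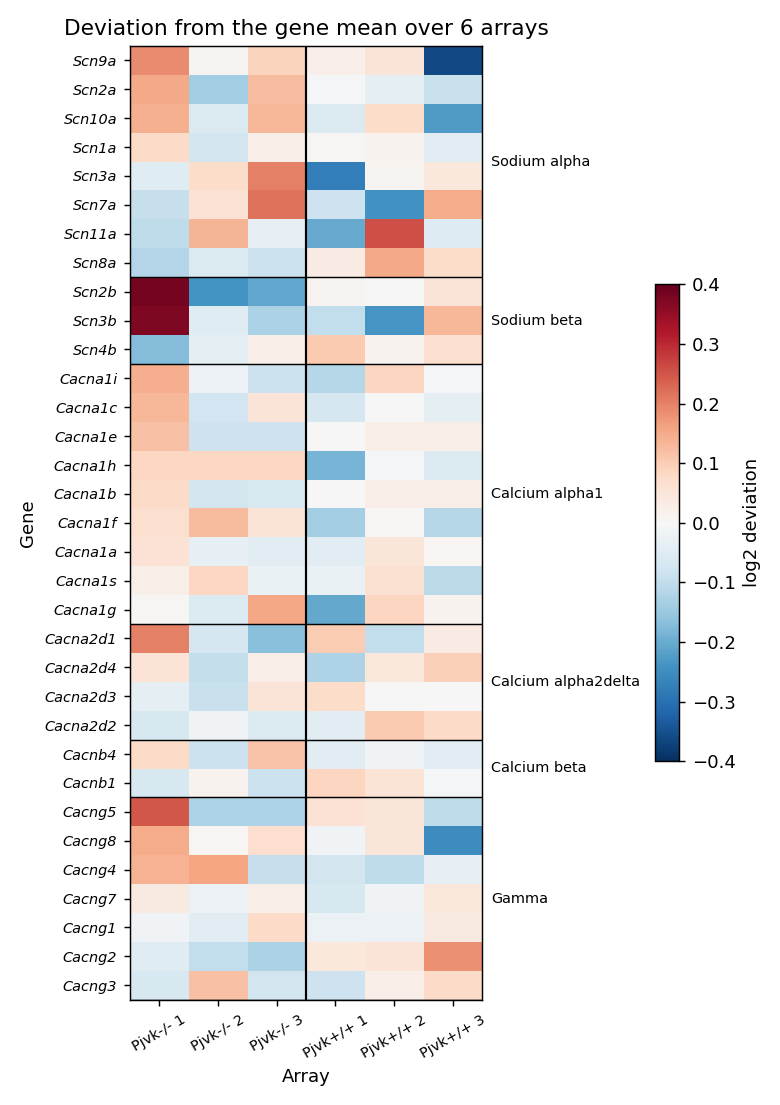
Deviation of the log2 signal from the mean of the gene over the 6 arrays (colour scale, clipped at 0.4) for the 33 channel genes in rows and the arrays in columns, grouped by role. Knockout replicate 1 is the highest array in 14 genes, most clearly in Scn2b and Scn3b.

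The pores of the calcium channels held 9 measured genes, of which 3 were lower and 6 higher. Cacna1h, a T-type pore, read 6.36 in each of 3 knockout arrays and 6.09, 6.27 and 6.22 in wild-type arrays. Every knockout array was higher, by 0.17 on average (SE 0.06, 1.12-fold, adjusted p = 0.353, exact permutation p = 0.1). Leaving out 1 array gave 0.12 to 0.20, and adding the Y-linked covariate gave 0.07. The other T-type pores overlapped between the genotypes, with Cacna1g at 0.07 (SE 0.09) and Cacna1i at 0.02 (SE 0.08). Cacna1f, the L-type pore of retinal photoreceptors, read 5.38, 5.44 and 5.37 against 5.18, 5.32 and 5.20. The groups did not overlap and differed by 0.16 (SE 0.06, adjusted p = 0.35, exact permutation p = 0.1), but its signal lay within the receptor background. Cacna1f lies on the X chromosome, and Y-linked levels were higher in every wild-type array. With the Y-linked covariate it was at 0.16, and the part of sex in its difference was not tested.

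Cacna1c, the L-type pore of heart, smooth muscle and many neurons, read 7.21, 7.0 and 7.13 against 7.01, 7.08 and 7.04, with overlapping genotypes and at 0.07 (SE 0.07, adjusted p = 0.677, exact permutation p = 0.4). It was 0.02 without knockout replicate 1. Of 6 smooth muscle and pericyte markers 4 were on the lower side and 2 on the higher, with none called. Acta2 and Myh11 were lower in every knockout array, at -0.38 (SE 0.07) and -0.31 (SE 0.07), beside 11.3% of all genes. Myocd, the next by p, was higher at 0.16 (SE 0.08), with overlapping genotypes and a signal within the receptor background. Of 9 supporting cell markers 6 were on the higher side, again with none called, with Tectb, a protein of the tectorial membrane, at 0.45 (SE 0.07, adjusted p = 0.0923), Otog at 0.21 (SE 0.07) and Prox1 at -0.21 (SE 0.06). The part of these cells in the differences of the channel genes was not tested. The presynaptic pores of neurons differed little. Cacna1a, the P/Q-type pore, differed by -0.01 (95% interval -0.14 to 0.12), Cacna1b, the N-type pore, by -0.04 (-0.17 to 0.10) and Cacna1e, the R-type pore, by -0.03 (-0.19 to 0.12). In the main fit these intervals, not adjusted for their number, lay within a 1.14-fold difference of signal in either direction. Cacna1d, the hair cell pore left out by the rule, was at 8.27 ± 0.03 in knockout and 8.15 ± 0.02 in wild-type arrays (SD, n = 3 each). It was higher in every knockout array, by 0.11 on average (SE 0.05, adjusted p = 0.412). Cacnb2 was at 5.75 ± 0.07 and 5.71 ± 0.19 (adjusted p = 0.882), with overlapping genotypes.

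The alpha2delta genes, whose proteins carry calcium channels to the surface, were on the lower side in 4 of 4, at -0.09 to -0.01. Cacna2d2, the subunit of inner hair cells and cerebellum, read 7.34, 7.39 and 7.35 against 7.36, 7.51 and 7.48, and differed by -0.09 (SE 0.06, adjusted p = 0.547, exact permutation p = 0.2). Cacna2d3, required for normal auditory nerve synapses, read 9.19, 9.14 and 9.28 against 9.30, 9.23 and 9.23, and differed by -0.05 (SE 0.06, adjusted p = 0.745, exact permutation p = 0.4). In both the genotypes overlapped. Cacna2d1 read 8.47, 8.20 and 8.10 against 8.37, 8.17 and 8.30 and differed by -0.02 (SE 0.10, adjusted p = 0.938, exact permutation p = 1), or by -0.13 without knockout replicate 1. Its second probe set differed by 0.03, and the sign of its difference changed with quantile normalization. Cacna2d4, of photoreceptor synapses, differed by -0.01 (SE 0.07).

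The beta subunits, which bind the pore from the cytoplasm and set its gating and trafficking, differed in the sign of their difference. Cacnb1, the beta subunit of skeletal muscle, read 6.79, 6.87 and 6.77 against 6.94, 6.91 and 6.85, and differed by -0.09 (SE 0.06, adjusted p = 0.532, exact permutation p = 0.2). Cacnb4, a neuronal beta subunit whose gene also lies on the chromosome of Pjvk, 132 genes away, read 9.23, 9.07 and 9.27 against 9.11, 9.14 and 9.11. It differed by 0.07 (SE 0.07, adjusted p = 0.671, exact permutation p = 0.4). The genotypes overlapped in both. The other member on that chromosome, Cacna1b, lies 456 genes away.

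Of the gamma genes, Cacng2 showed the largest lower difference of all 33. Cacng2 encodes stargazin, which brings AMPA receptors to the synapse and holds them there. It read 8.38, 8.33 and 8.30 in knockout and 8.47, 8.48 and 8.61 in wild-type arrays, so that all knockout arrays were lower. The difference was -0.18 (SE 0.06, 1.14-fold, adjusted p = 0.317, exact permutation p = 0.1). Its second probe set read 7.87, 7.83 and 7.82 against 8.03, 7.98 and 7.99 and differed by -0.16 (adjusted p = 0.318 with all probe sets entered singly). Both probe sets thus separated the genotypes in the same direction, without passing the test. The difference ran from -0.21 to -0.14 with 1 array left out.

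The other gamma genes overlapped between the genotypes. Cacng4 read 8.73, 8.75 and 8.5 against 8.52, 8.49 and 8.56. It differed by 0.14 (SE 0.08, adjusted p = 0.477, exact permutation p = 0.3), or by 0.22 without knockout replicate 3. Cacng8 read 6.70, 6.56 and 6.62 against 6.54, 6.60 and 6.30 and differed by 0.15 (SE 0.09, adjusted p = 0.496, exact permutation p = 0.2), or by 0.06 without wild-type replicate 3, 0.21 without wild-type replicate 2 and 0.347 with the Y-linked covariate. Cacng3, within the receptor background, differed by -0.01, Cacng7 by 0.02 and Cacng5 by 0.

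**Figure D4:**
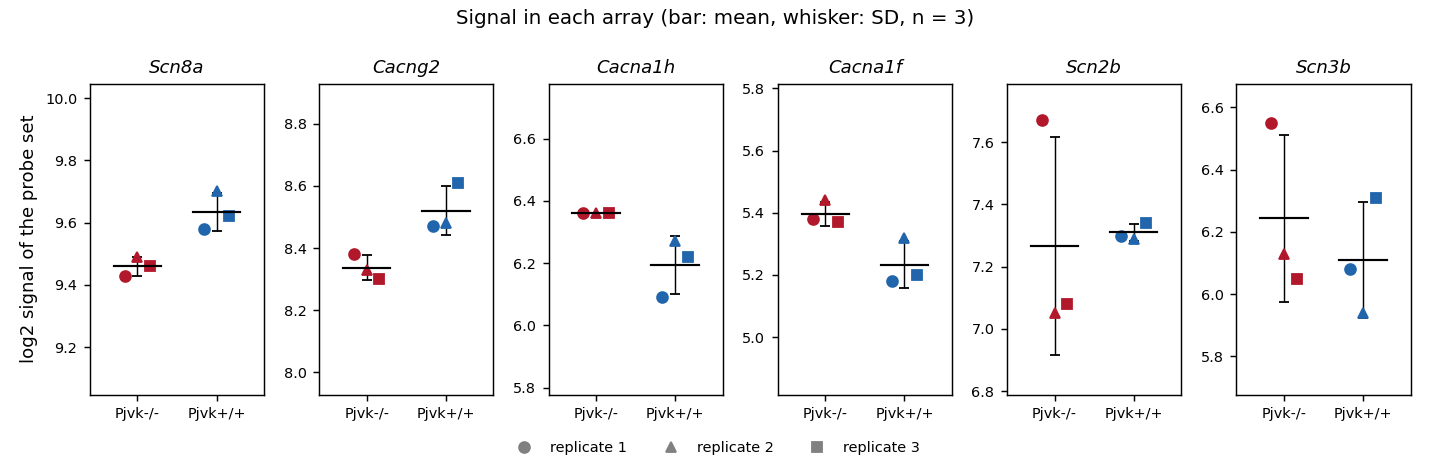
Log2 signal (vertical axis, each panel spanning 1 unit) in the 6 arrays for the 4 channel genes whose genotypes do not overlap and for the sodium channel beta genes Scn2b and Scn3b, with the mean and SD of 3 arrays per genotype. Scn8a and Cacng2 lie lower and Cacna1h and Cacna1f higher in all 3 knockout arrays, whereas in Scn2b and Scn3b knockout replicate 1 lies apart from the other knockout arrays.

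The calcium channel of skeletal muscle offered a comparison with muscle carried along in the dissection. The pore Cacna1s read 6.18, 6.24 and 6.13 against 6.13, 6.22 and 6.05, and the gamma subunit Cacng1 6.47, 6.44 and 6.56 against 6.46, 6.46 and 6.52. Both overlapped between the genotypes, at 0.05 (SE 0.06) and 0.01 (SE 0.06), and Cacnb1 was at -0.09. Beside them, 13 of 15 skeletal muscle markers were on the higher side in the knockout, with a median of 0.19. None of the 15 was called in limma, and 7 were at an unadjusted p under 0.05, beside 12.4% of all genes. All 15 lay below the median signal, where 6315 of 9969 genes were higher in the knockout. Tnnc2, a troponin, differed by 0.39 (SE 0.09). The fast myosins Myh4 and Myh2 differed by 0.35 (SE 0.07) and 0.26 (SE 0.08), with signals within the receptor background, where little can be read from them. The mean signal of the list was 6.15 to 6.33 in knockout and 5.99 to 6.14 in wild-type arrays. The contrast between these subunits and the markers was not tested.

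Genes that work with these channels were likewise not called. Of 21 measured partners of sodium channels at the axon initial segment and node, 13 were lower and 8 higher, with a median of -0.05. None was at an unadjusted p under 0.05, and 2 of 21 separated the genotypes, beside 17.8% of all genes. They were Nfasc, the neurofascin adhesion protein, at -0.09 (SE 0.06) and Ank2, an ankyrin, at -0.08 (SE 0.05). Fgf12, an intracellular modulator of sodium channels, differed by -0.14 (SE 0.08) and Gldn, the glial protein that gathers channels at nodes, by 0.13 (SE 0.08). Of the 11 spiral ganglion neuron markers, 7 were lower and 4 higher, with a median of -0.01 and none called. Snap25 and Thy1 were lower in every knockout array, at -0.11 (SE 0.05) and -0.15 (SE 0.08), whereas Prph and Rbfox3 were higher in every one, at 0.13 (SE 0.06) and 0.07 (SE 0.05). The part of neuronal RNA in the Scn8a difference was not tested.

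Of 26 measured partners and regulators of calcium channels, 16 were lower and 10 higher, with a median of -0.02. None was called in limma and 5 of 26 were at an unadjusted p under 0.05, beside 12.4% of all genes. Without overlap of the genotypes, 2 were lower and 3 higher in the knockout, beside 11.3% and 6.59% of all genes. Stac2, an adaptor that slows the inactivation of L-type channels, was the member with the smallest p. It read 8.43, 8.52 and 8.48 in knockout and 8.85, 8.69 and 8.85 in wild-type arrays, a shift of -0.32 (SE 0.06, adjusted p = 0.177) with no overlap. Ryr1, the calcium release channel of skeletal muscle, was at 0.26 (SE 0.07, adjusted p = 0.217), beside the muscle markers given above. Cabp2, a calmodulin-like regulator of the hair cell calcium channel, was at 0.19 (SE 0.06, adjusted p = 0.315), with no overlap. The hair cell markers beside it were lower in 6 and higher in 5 of 11, with none called. The members with the smallest p were on the higher side. Tmc1 and Pou4f3 were higher in every knockout array, at 0.22 (SE 0.06, adjusted p = 0.273) and 0.13 (SE 0.07). Chrna9 was at 0.26 (SE 0.13), with overlap. None of the 11 was lower in every knockout array. The part of hair cells in the Cabp2 difference was not tested. In the wider channel superfamily none of 10 genes was called, with Catsper1, of sperm, within the receptor background, at 0.14 (SE 0.06) and the endolysosomal channel genes Tpcn1 and Tpcn2 at -0.09 (SE 0.05) and 0.09 (SE 0.09).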

How the data were processed

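Total RNA of organ of Corti was labelled from 100 ng and hybridised to Affymetrix mouse gene ST arrays, per the labels' protocols. Affymetrix Expression Console is the tool in the submitters' processing notes, without a version. The authors deposited values that are on a log2 scale, as read from their range. How probes were summarized and normalized, and on which build, was not given in the sources used here. Depth has no counterpart in array data, and the number of arrays limits the precision.

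Symbols came from the platform annotation (1 symbol for 21789 probe sets, several for 1621, 12147 not listed), updated through gene identifiers for 21698. The 19938 genes were fitted with limma 3.58.1 in R 4.3.3 (lmFit, eBayes), without a filter, with Benjamini-Hochberg adjustment over the whole gene table and a threshold of 0.05. Single genes were also tested by exact permutation over the 6 arrays. Steps were tested on simulated data. Members and lists were chosen with earlier results of these data known. Named with all values were, in each role group, the 3 members with the smallest unadjusted p, besides members chosen for position on the chromosome of Pjvk or as muscle subunits. Of each partner or cell type list up to 3 were named by the smallest p, besides Ank2 and Rbfox3, added after their values were seen to complete a count.

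Replicate numbers were checked for pairing. Deviations of same-numbered arrays correlated at 0.08, 0.02 and -0.01. These lay within the range of differently numbered arrays, -0.11 to 0.09. With 3 arrays per genotype this cannot decide whether samples were paired.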

Additional observations from a re-analysis of the deposited data

How the results depend on the processing

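No channel gene was called under any of the 15 alternatives, and the median over the channel genes stayed between -0.01 and 0.04. The number of genes called in the whole table, 7, moved to 20 and 45 with only genes at or above the 25th percentile or the median of signal kept, 18 with centring on array medians, 112 with an intensity trend and robust priors, 1 with the replicate block and 0 after adding the mean Y-linked level (limma, 1087 at an unadjusted p under 0.05), and lay between 2 and 6 with 1 array left out. The block result rests on a shared number only, and it called no channel gene. Small differences changed sign. Cacna2d1 was 0.002 with the mean of its probe sets, 0.018 with quantile normalization and 0.144 with that covariate, and Scn2a -0.017 with the mean of its probe sets. Cacng1 was -0.013 with quantile normalization, -0.003 with centring and -0.07 with the covariate, under which Scn2b was 0.107, Scn3a -0.166 and Scn7a -0.161. With 1 array left out Cacna2d1 ran from -0.13 to 0.055, Scn2b from -0.24 to 0.065, Scn3b from -0.02 to 0.23, Scn1a from -0.017 to 0.058 and Cacng1 from -0.025 to 0.035. Of 378 alternative values 350 were counted as unchanged, 19 as changed in sign and 9 as moved counts. The 350 include values of 0. They also include the channel median among genes at or above the median signal, -0.01 beside 0.017 in the main fit. Fold changes that kept their sign but not their size count among them too. Scn9a, for example, was 0.193 in the main fit and 0.502 with the covariate. The cause of the changes was not tested. Every wild-type array had a higher Y-linked level than every knockout array, so covariate and genotype are hard to separate. The filters removed 4 and 16 of the 33 genes.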
